A study of Mus musculus with 6 samples.

Results

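The brush border genes described here were the genes of the deposited count table that carry the Gene Ontology cellular component term brush border. Of 55487 genes in the table, 51 carried the term. The endocytic receptor gene Cubn was left out by name, and none of the 51 lay in the triplicated segment of chromosome 16. Of the remaining 50 genes, 37 had 10 or more counts in at least 3 libraries and 13 did not. All 37 were tested. Expression was measured by poly(A)-selected RNA-seq with a directional kit in cells grown from mouse embryonic stem cells. There were 3 libraries from Ts1Cje cells and 3 from wild-type cells. Ts1Cje mice model Down syndrome and carry the distal end of chromosome 16 in an additional copy; the labels say only that the lines came from Ts1Cje or wild-type mice, and do not say how many lines or clones were used. Both genotypes were kept as stem cells in KnockOut DMEM with KnockOut serum replacement and LIF, and both were then given FGF2, BMP-4, activin A and VEGF until day 4 to induce primitive macrophage progenitors. The libraries are named by lot, and nothing says that the lots were separate cultures, so p-values measure only the spread between these libraries.

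A brush border is a dense carpet of microvilli on the apical face of an absorptive epithelial cell. It is best known from the enterocytes of the small intestine and the proximal tubule of the kidney, and the visceral endoderm of the early mouse embryo carries one as well. Each microvillus holds a bundle of parallel actin filaments, tied together by bundling proteins such as villin, espin and plastin 1, and fastened to the membrane by ezrin and class I myosins. Protocadherins and their scaffold proteins join the tips of neighbouring microvilli, and PDZ scaffolds hold transporters in the membrane. The term also takes in proteins with wide roles outside this structure, such as β-actin and filamin A.

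Total counts ran from 16577065 to 19010856 per library. Replicates of a group differed by more than sampling noise, and the first principal component, with 81.7% of the variance, separated the genotypes. The 76 tested genes of the triplicated segment had a median fold change of 1.39. Of 14 markers of macrophage progenitors and macrophages, 6 had enough counts to be tested, with 3 higher and 1 lower, and Ptprc and Cx3cr1 were at 0 in all 6 libraries. Genes of other cell types moved with genotype. The summed level of 9 mesoderm and vessel markers was 263, 368 and 192 CPM in Ts1Cje and 1469.6, 1521 and 1596 CPM in wild-type, where CPM is the count scaled to library size with TMM factors. For 8 pluripotent stem cell markers the sums were 1058, 710.4 and 695 CPM in Ts1Cje and 389, 122 and 130.4 CPM in wild-type. The 14 macrophage progenitor and macrophage markers summed to 219, 216 and 237 CPM in Ts1Cje and 74.2, 105 and 114 CPM in wild-type. In bulk samples, fewer cells of a type and less RNA per cell cannot be told apart.

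Brush border genes were mostly higher in Ts1Cje than in wild-type cells. At an adjusted p below 0.05 in edgeR's quasi-likelihood test over 17315 genes, 22 of the 37 genes were higher in Ts1Cje, 6 were lower and 9 were not called. Of all tested genes, 43.8% were called, 23.3% as higher and 20.5% as lower, so the members' 59.5% higher lay above the background and their 16.2% lower lay below it. The median log2 fold change over the 37 genes was 0.72, or 1.64-fold, with quartiles of −0.09 and 1.78. Over all tested genes the median was −0.01. At least 2-fold higher and called were 15 members, where 11.7% of all genes were, and 1 member, Ush1c, was at least 2-fold lower and called, where 6.41% of all genes were. In 24 members all 3 Ts1Cje libraries lay above all 3 wild-type libraries in CPM, and in 8 they lay below, against 28.8% and 26.4% of all tested genes (55.2% in either direction). Ush1c passed the count minimum only through wild-type and Atp6v0a4 only through Ts1Cje. Without them, 21 of 35 genes were higher and 5 were lower, with the same median of 0.72. More than 1 marker list leaned the same way, among them visceral endoderm, with 10 of 13 tested higher in Ts1Cje, and pluripotent stem cell, with 6 of 8. Mesoderm and vessel markers leaned the other way, with 7 of 9 lower.

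**Figure D1:**
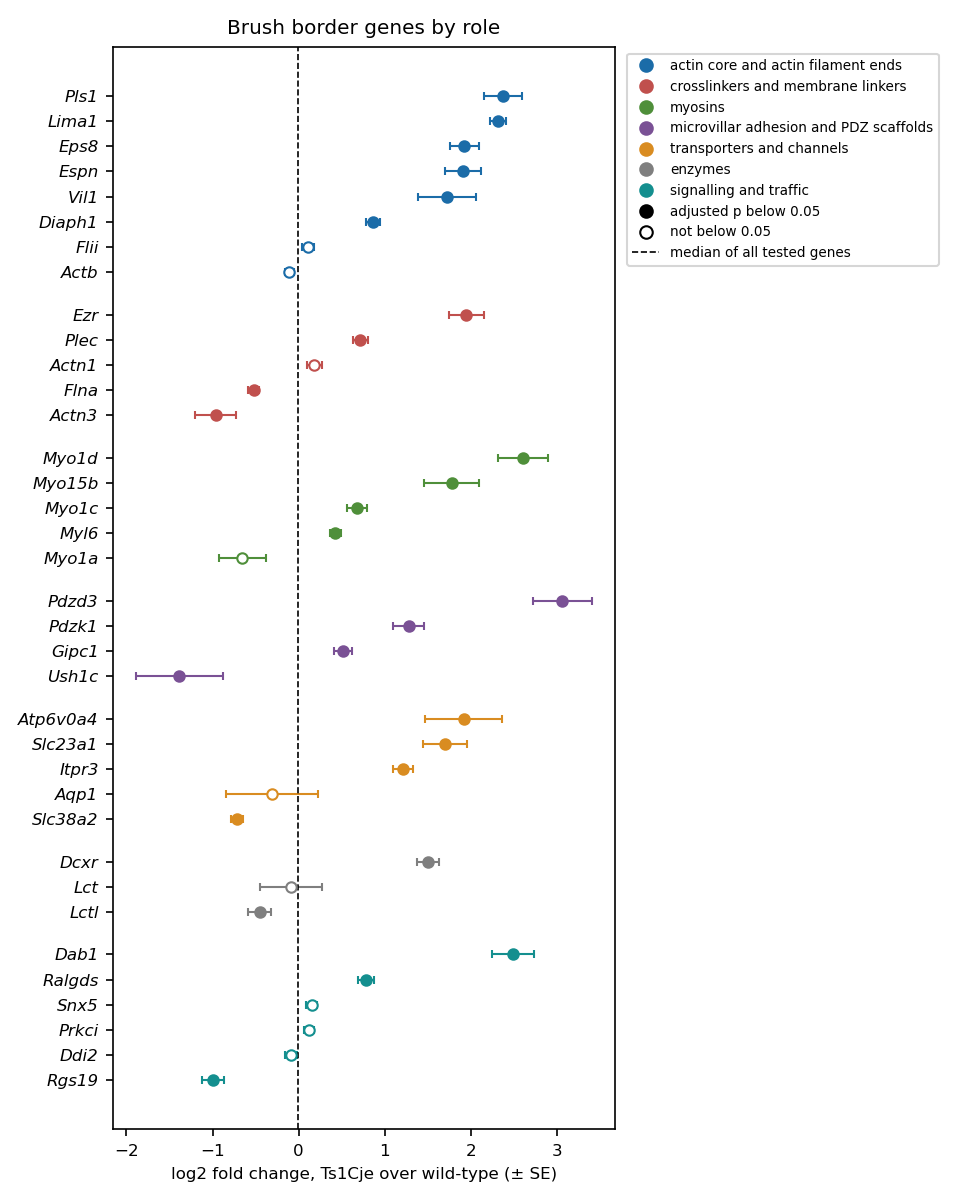
Log2 fold change (Ts1Cje over wild-type, x axis) with its SE for 36 of the brush border genes, grouped and coloured by role; filled points have an adjusted p below 0.05 and open points do not. The actin core genes Pls1, Lima1, Eps8, Espn and Vil1 lie between 1.73 and 2.37, and Diaph1, Flii and Actb of the same role lie at 0.86, 0.11 and −0.11. The signalling and traffic genes run from −0.99 to 2.49.

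Among the actin core genes, 6 of 8 rose in Ts1Cje and none of the 8 was called lower. Vil1 encodes villin, which bundles, caps and severs actin filaments in microvilli (ENSMUSG00000026175, chromosome 1, 74409376 to 74435559, plus strand, mm10). Vil1 had 7.89, 4.23 and 8.71 CPM in the Ts1Cje libraries, against 1.62, 2.98 and 1.70 CPM in the wild-type libraries (log2 fold change 1.73 ± 0.34 (SE), adjusted p = 0.00251). The groups did not overlap, although replicate 2 of Ts1Cje was close to replicate 2 of wild-type. Espn encodes the bundling protein espin and had 12.5, 10.9 and 8.34 CPM in Ts1Cje and 2.49, 2.98 and 2.96 CPM in wild-type (log2 fold change 1.91 ± 0.21, adjusted p = 7.73e-05). Pls1 encodes plastin 1, the fimbrin of intestinal microvilli, and had 16.2, 13.0 and 17.2 CPM in Ts1Cje and 3.90, 2.76 and 2.30 CPM in wild-type (log2 fold change 2.37 ± 0.22, adjusted p = 2.59e-05). Vil1, Espn and Pls1 were thus each at least 3 times as high in the Ts1Cje mean as in the wild-type mean, at low levels of 2.61 to 7.65 TPM over the 6 libraries.

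Eps8, which caps and bundles filaments at the microvillus tip, had 58.1, 38.9 and 60.6 CPM in the Ts1Cje libraries, against 15.1, 12.9 and 13.5 CPM in the wild-type libraries (log2 fold change 1.93 ± 0.17, adjusted p = 2.83e-05). Lima1 encodes EPLIN, which binds along actin filaments and slows their turnover (ENSMUSG00000023022, chromosome 15, 99778470 to 99875456, minus strand). Its values were 91.5, 86.8 and 105 CPM in Ts1Cje and 19.8, 19.1 and 18.04 CPM in wild-type (log2 fold change 2.31 ± 0.10, adjusted p = 6.5e-07), the smallest adjusted p of the 37 genes. Diaph1, a formin that nucleates and elongates filaments, had 147.8, 136 and 140.2 CPM in Ts1Cje and 87.2, 74.7 and 71.0 CPM in wild-type (log2 fold change 0.86 ± 0.08, adjusted p = 3.76e-05). In each of these 3 genes the lowest Ts1Cje library lay well above the highest wild-type library. The monomer gene itself did not pass the test. Actb, for β-actin, had 2409, 2398 and 2406 CPM in the Ts1Cje libraries, against 2586, 2507 and 2685 CPM in the wild-type libraries (log2 fold change −0.11 ± 0.05, adjusted p = 0.12), and every Ts1Cje library lay below every wild-type library by a few percent. Flii, a gelsolin relative, also missed the threshold, with 95.9, 106 and 107 CPM in Ts1Cje and 93.3, 93.5 and 100.1 CPM in wild-type (log2 fold change 0.11 ± 0.07, adjusted p = 0.253).

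Promoter sequences of Vil1, Lima1 and Ezr are shown because these 3 genes rose together and because the searched motifs fell in them. They come from RefSeq (GRCm38.p6), run 5′ to 3′ on the gene's strand and end at the base before the start of the transcript or, for Vil1 and Ezr, 8 and 4 bases short of the RefSeq start, before the first base of an annotated exon. Capitals mark a CArG box, the site of serum response factor, in Vil1 and Lima1, and a GC box (GGGCGG or its reverse complement CCGCCC) in Vil1 and Ezr.
Vil1 promoter, chr1:74409134-74409375: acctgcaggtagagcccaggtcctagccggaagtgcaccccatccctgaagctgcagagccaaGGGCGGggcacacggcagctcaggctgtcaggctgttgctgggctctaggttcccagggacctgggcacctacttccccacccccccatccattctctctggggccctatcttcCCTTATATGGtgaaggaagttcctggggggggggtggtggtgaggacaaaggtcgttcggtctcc
Lima1 promoter, chr15:99820150-99820399: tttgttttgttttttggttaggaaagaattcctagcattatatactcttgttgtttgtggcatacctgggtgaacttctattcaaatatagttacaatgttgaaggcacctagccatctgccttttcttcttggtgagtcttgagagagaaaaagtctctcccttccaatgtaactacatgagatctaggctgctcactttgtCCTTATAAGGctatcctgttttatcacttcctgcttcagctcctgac
Ezr promoter, chr17:6782785-6783030: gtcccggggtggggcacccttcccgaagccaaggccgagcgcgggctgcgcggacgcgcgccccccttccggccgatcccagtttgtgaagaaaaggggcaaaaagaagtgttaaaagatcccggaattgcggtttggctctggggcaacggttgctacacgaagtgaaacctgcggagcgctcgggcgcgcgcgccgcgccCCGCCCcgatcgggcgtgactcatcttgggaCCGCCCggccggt
In Vil1 the GC box began 187 bases and the CArG box 73 bases before the RefSeq start, 8 of which are not printed. In Lima1 the CArG box began 47 bases before the RefSeq start. That start lies 55307 bases inside the longer gene span of the count table, so the counts are not of transcripts from that start alone. In Ezr the GC boxes began 48 and 17 bases before the RefSeq start, 4 of which are not printed.

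RefSeq promoters outside chromosome 18 were available for 28 of the 37 genes, and 250 bases before the start were searched on both strands. A GC box stood in 16 of the 28 (57.1%), against 32.7% of 32851 windows of the same length. Among the 15 called higher with a promoter, 7 held one. The members' promoters were richer in G and C, with a median of 60.6%, against 52.4% for all windows. A CArG box stood in 2 of 28 (7.14%), Vil1 and Lima1, against 1.47% of all windows. The other searched words were no more frequent than in all windows. The CDX word TTTATG stood in 3 members (10.7%, against 10.8%) and the GATA word AGATAA in 1 (3.57%, against 9.99%). The HNF4 word CAAAGTCCA (0.384% of windows), the FOXA word TGTTTAC (3.17%) and the TATA word TATAAA (12.4%) stood in 0 of 28. A match is a string of letters and says nothing of binding.

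The crosslinkers and membrane linkers were divided, with 3 of 6 higher and 2 lower. Ezr encodes ezrin, which ties the actin bundle to the membrane (ENSMUSG00000052397, chromosome 17, 6738041 to 6782784, minus strand). It had 275, 224 and 272 CPM in the Ts1Cje libraries, against 88.3, 55.0 and 56.8 CPM in the wild-type libraries (log2 fold change 1.94 ± 0.20 (SE), adjusted p = 0.000473). Replicate 1 was the highest of the wild-type libraries and still lay far below Ts1Cje. Plec, a cytolinker of intermediate filaments and actin, had 183, 194 and 197 CPM in Ts1Cje and 108, 108 and 133 CPM in wild-type (log2 fold change 0.72 ± 0.09, adjusted p = 0.000145). The direction was opposite for Flna, which encodes filamin A, a crosslinker of actin networks (ENSMUSG00000031328, chromosome X, 74223461 to 74249820, minus strand). Flna had 863, 956 and 863 CPM in the Ts1Cje libraries, against 1345, 1238 and 1263 CPM in the wild-type libraries (log2 fold change −0.52 ± 0.06, adjusted p = 0.00014), with no overlap between groups.

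The α-actinins differed too. Actn3 had 5.15, 8.34 and 4.78 CPM in Ts1Cje and 14.4, 11.5 and 9.59 CPM in wild-type (log2 fold change −0.97 ± 0.24, adjusted p = 0.00927), while Actn1 had 321, 359 and 392 CPM in Ts1Cje and 291, 305 and 346 CPM in wild-type and was not called (log2 fold change 0.18 ± 0.09, adjusted p = 0.121); without Ts1Cje replicate 1 it passed as higher (adjusted p = 0.0413). Actn3 is known as the isoform of fast muscle fibres. Its TPM was 0.0306, 0.0443 and 0.0233 of that of Actn1 in Ts1Cje and 0.0945, 0.0720 and 0.0528 in wild-type. This pair was picked after its values were seen. The other genes of ezrin's family lack the term, were picked after their values were seen, and were both called lower. Msn, for moesin, averaged 131 ± 16.3 CPM in Ts1Cje and 261 ± 14.7 CPM in wild-type (SD, n = 3 each; log2 fold change −0.998 ± 0.09, adjusted p = 2.83e-05). Rdx, for radixin, averaged 373 ± 15 CPM in Ts1Cje and 484 ± 84.1 CPM in wild-type (log2 fold change −0.37 ± 0.12, adjusted p = 0.0318). The call for Rdx was lost when any single library other than wild-type replicate 1 was left out, with adjusted p between 0.0635 and 0.109. Of the 3 genes, Ezr was the one called higher in Ts1Cje.

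**Figure D2:**
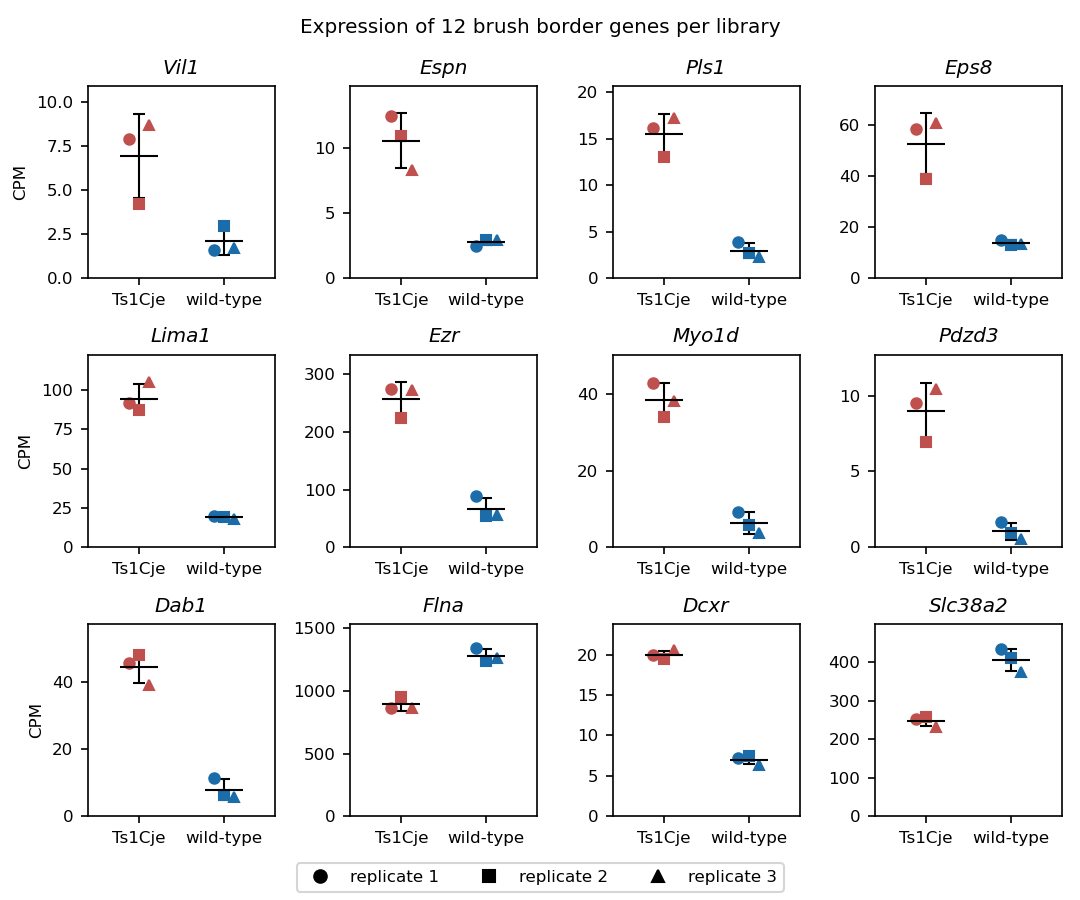
CPM (y axes, from 0) in each of the 3 Ts1Cje and 3 wild-type libraries for 12 brush border genes; symbols mark the replicate number, horizontal lines the mean and bars the SD. All 12 are called genes, and their groups do not overlap, as in 55.2% of all tested genes. Flna and Slc38a2 are lower in Ts1Cje. Replicate 2 is the lowest Ts1Cje library in Vil1, Pls1, Eps8, Lima1, Ezr, Myo1d, Pdzd3 and Dcxr.

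Of the 5 tested myosin genes, 4 were higher in Ts1Cje. Myo1d, a class I myosin of microvilli and endosomes, had 42.8, 33.9 and 38.3 CPM in the Ts1Cje libraries, against 9.36, 5.74 and 3.73 CPM in the wild-type libraries (log2 fold change 2.61 ± 0.29 (SE), adjusted p = 0.000313). Myo1c, a class I myosin of the cell cortex, had 136, 122 and 159 CPM in Ts1Cje and 77.3, 83.9 and 99.3 CPM in wild-type (log2 fold change 0.68 ± 0.12, adjusted p = 0.00148). Myo15b had 4.00, 3.58 and 5.67 CPM in Ts1Cje and 0.812, 1.57 and 1.48 CPM in wild-type (log2 fold change 1.78 ± 0.32, adjusted p = 0.00147), at a mean of only 0.932 TPM. Myl6, a light chain shared by many myosins, had 297, 292 and 314 CPM in Ts1Cje and 236, 212 and 223 CPM in wild-type (log2 fold change 0.43 ± 0.06, adjusted p = 0.000436). These 4 genes span changes of 1.35-fold to more than 6-fold, and none overlapped between groups. Myo1a, the class I myosin that bridges core bundle and membrane in enterocytes, was not among them. It had 1.70, 2.09 and 2.36 CPM in the Ts1Cje libraries, against 2.49, 3.79 and 3.40 CPM in the wild-type libraries (log2 fold change −0.65 ± 0.27, adjusted p = 0.0766), lower in every Ts1Cje library than in every wild-type library. Leaving out wild-type replicate 1 brought it past the threshold as lower (log2 fold change −0.81, adjusted p = 0.0313). Myo1d over Myo1a, as a ratio of TPM, was 14.5, 9.34 and 9.32 in Ts1Cje and 2.16, 0.870 and 0.630 in wild-type, a pair picked after its values were seen.

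Of the scaffold genes among the members, Pdzd3, Pdzk1 and Gipc1 were called higher, and Ush1c was called lower on few counts. Pdzd3, also called NHERF4 (ENSMUSG00000032105, chromosome 9, 44247307 to 44251471, minus strand), had 9.53, 6.91 and 10.4 CPM in the Ts1Cje libraries, against 1.68, 0.974 and 0.548 CPM in the wild-type libraries (log2 fold change 3.06 ± 0.35 (SE), adjusted p = 9.17e-05). At 8.36-fold this was the largest change of the 37 genes. Pdzk1, also called NHERF3, had 23.2, 20.4 and 24.7 CPM in Ts1Cje and 11.9, 8.98 and 7.24 CPM in wild-type (log2 fold change 1.28 ± 0.18, adjusted p = 0.00033). Gipc1, an adaptor of myosin VI on endosomes, had 80.5, 101 and 106 CPM in Ts1Cje and 63.8, 64.5 and 73.0 CPM in wild-type (log2 fold change 0.51 ± 0.11, adjusted p = 0.00342). The NHERF family gene Slc9a3r1, for NHERF1, which lacks the term and was picked after its values were seen, averaged 279 ± 12.4 CPM in Ts1Cje and 279 ± 15.7 CPM in wild-type (log2 fold change 0.00 ± 0.06, adjusted p = 0.973). Ush1c encodes harmonin, a scaffold of the tip links between microvilli. It had 4, 3 and 9 counts in Ts1Cje and 16, 11 and 16 in wild-type (log2 fold change −1.39 ± 0.50, adjusted p = 0.0478). Ush1c lost its call when any library other than Ts1Cje replicate 3 was left out, with adjusted p between 0.0696 and 0.150. It also lost it with DESeq2 (0.120) and with no filter on counts (0.0970).

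Its partners in the tip links had too few counts to be tested. Cdhr2, a protocadherin of the links, had 18, 8 and 18 counts in Ts1Cje and 0, 5 and 0 in wild-type. Anks4b, which binds harmonin, had 6, 14 and 18 counts in Ts1Cje and 3, 2 and 2 in wild-type. Myo7b, the myosin of the same complex, was at 0 in all 6 libraries. The complex was thus near the limit of detection at this depth, since 3 counts correspond to 0.157 to 0.179 CPM. The other 10 untested genes were as low. Scin, for the filament-severing scinderin, had 34 counts summed over Ts1Cje and 4 over wild-type. Slc15a1, the intestinal peptide transporter, had 27 summed over Ts1Cje and 7 over wild-type, and the phosphate transporter Slc34a3 had 17 over Ts1Cje and 6 over wild-type. The natriuretic peptide gene Nppa had 20 over Ts1Cje and 21 over wild-type. Even lower were Rapgef4 (6 in Ts1Cje, 3 in wild-type), Slc9a2 (6 in Ts1Cje, 0 in wild-type) and Treh (0 in Ts1Cje, 3 in wild-type). The sucrase gene Sis was at 0 in every library, which allows up to 3 counts. Rsc1a1 and Gm49909 are also listed at 0, but Rsc1a1 lies wholly inside Ddi2 on the same strand and Gm49909 overlaps other genes, so their reads may not have been assignable and the 0 is no bound.

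Among 5 tested transporters and channels, 3 were higher in Ts1Cje and 1 was lower. Itpr3, an inositol trisphosphate receptor and calcium release channel, had 107, 150.3 and 134 CPM in the Ts1Cje libraries, against 54.4, 55.6 and 59.1 CPM in the wild-type libraries (log2 fold change 1.21 ± 0.12 (SE), adjusted p = 4.75e-05). Slc23a1, an apical vitamin C transporter, had 17.4, 8.94 and 12.3 CPM in Ts1Cje and 3.79, 4.76 and 3.34 CPM in wild-type (log2 fold change 1.70 ± 0.26, adjusted p = 0.000568). Atp6v0a4, a subunit of the proton pump of kidney intercalated cells, had 1.04, 0.894 and 0.997 CPM in Ts1Cje and 0.271, 0.162 and 0.329 CPM in wild-type (log2 fold change 1.92 ± 0.45, adjusted p = 0.00613), on 19, 15 and 19 counts in Ts1Cje and 5, 3 and 6 in wild-type. Lower instead was Slc38a2, a widely expressed transporter of neutral amino acids, with 252, 258 and 233 CPM in the Ts1Cje libraries, against 433, 411 and 375 CPM in the wild-type libraries (log2 fold change −0.72 ± 0.07, adjusted p = 4e-05). Aqp1, the water channel of the proximal tubule, was at most 1.43 CPM in any library and was not called (log2 fold change −0.31 ± 0.54, adjusted p = 0.675).

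Of the enzymes, 1 rose and 1 fell. Dcxr, a carbonyl and xylulose reductase, had 19.9, 19.4 and 20.5 CPM in the Ts1Cje libraries, against 7.25, 7.47 and 6.36 CPM in the wild-type libraries (log2 fold change 1.504 ± 0.13 (SE), adjusted p = 1.8e-05), with little spread in either group. Lctl, a relative of lactase that overlaps Zwilch, had 9.92, 11.1 and 10.5 CPM in Ts1Cje and 14.0, 13.7 and 15.5 CPM in wild-type (log2 fold change −0.45 ± 0.13, adjusted p = 0.018). The groups did not overlap, but the call for Lctl was lost without Ts1Cje replicate 1 (adjusted p = 0.0581), without Ts1Cje replicate 3 (0.0527) and without wild-type replicate 3 (0.0694). Lct, which encodes lactase, the classical disaccharidase of the brush border, had 1.10, 1.31 and 1.57 CPM in Ts1Cje and 1.89, 1.41 and 0.932 CPM in wild-type, with overlapping groups (log2 fold change −0.09 ± 0.36, adjusted p = 0.864).

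The signalling and traffic genes were mixed, with 2 of 6 higher and 1 lower. Dab1, the adaptor of Reelin signalling, had 45.7, 48.1 and 39.2 CPM in the Ts1Cje libraries, against 11.5, 6.28 and 5.87 CPM in the wild-type libraries (log2 fold change 2.49 ± 0.24 (SE), adjusted p = 0.000121), the third largest rise of the set. Ralgds, an exchange factor for Ral, had 36.9, 43.1 and 42.1 CPM in Ts1Cje and 24.6, 23.3 and 23.1 CPM in wild-type (log2 fold change 0.78 ± 0.10, adjusted p = 0.000154). Rgs19, which speeds GTP hydrolysis by G proteins, had 15.1, 16.7 and 18.4 CPM in Ts1Cje and 29.3, 32.9 and 37.6 CPM in wild-type (log2 fold change −0.99 ± 0.13, adjusted p = 0.000182). The 74 other tested genes within 5 Mb of Rgs19 on chromosome 2 had a median log2 fold change of −0.64, and what part this has in its value was not tested. No other member had neighbours whose median reached 0.5 in size. Snx5, Prkci and Ddi2, for a sorting nexin, an atypical protein kinase C and a protease, were not called, with log2 fold changes of 0.15, 0.12 and −0.09.

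**Figure D3:**
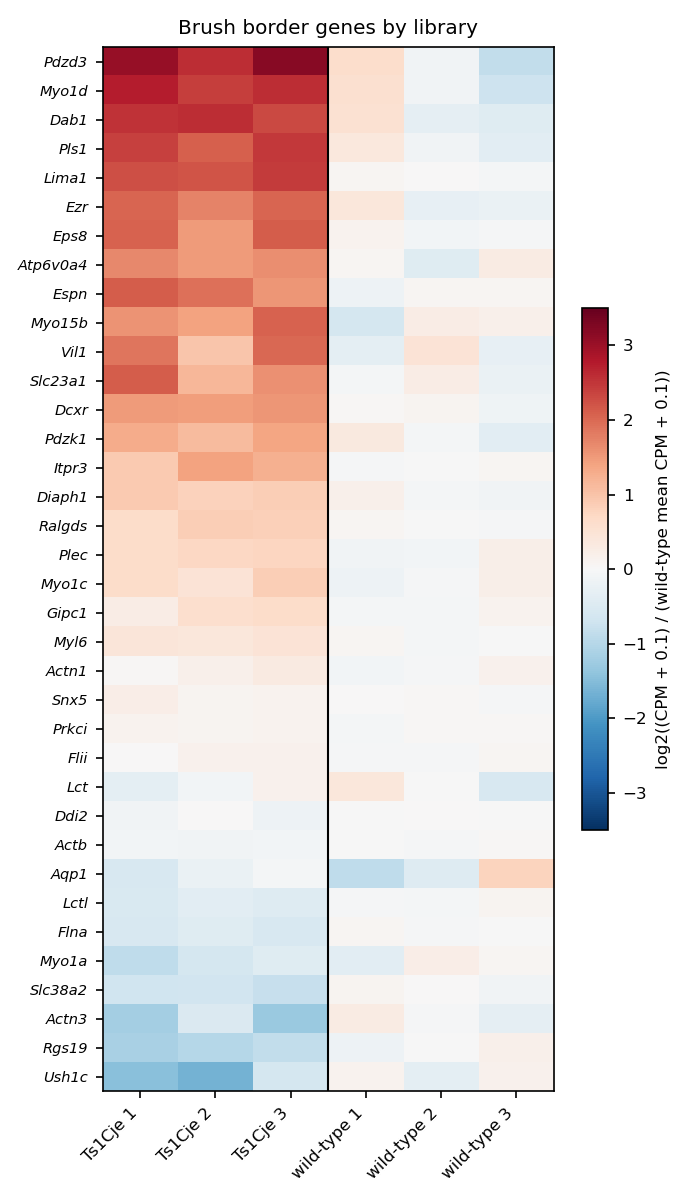
36 of the brush border genes (rows, ordered by fold change) in each library (columns, Ts1Cje left of wild-type), coloured by log2 of CPM plus 0.1 over the wild-type mean plus 0.1. The upper rows are red in all 3 Ts1Cje libraries and the lower rows blue, and Ts1Cje replicate 2 is paler than the other Ts1Cje libraries in rows such as Vil1, Eps8 and Ezr.

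By library, the median deviation of the 37 genes from the wild-type mean was 0.66, 0.74 and 0.82 (log2) in Ts1Cje replicates 1, 2 and 3, against 0.04, −0.03 and −0.02 in wild-type. Among the 22 genes called higher, Ts1Cje replicate 2 was the lowest of its group in 16 (72.7%), against 50.4% of all genes called higher in the table. Wild-type replicate 1 was the one nearest to Ts1Cje in 12 of the 22 (54.5%), against 48.5% of all genes called higher. The summed TPM of the 37 genes was 5429, 5545 and 5609.6 in Ts1Cje and 5345, 4996 and 5141 in wild-type. Actb alone made up 52.9%, 52.8% and 51.6% of it in Ts1Cje and 59.3%, 60.3% and 61.1% in wild-type. Without Actb the sums were 2559, 2616 and 2715 TPM in Ts1Cje, against 2175, 1983 and 1998 TPM in wild-type. The genes called higher with more than a 3-fold change had at most 24.0 TPM on average over the 6 libraries, except Ezr with 159 TPM.

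**Figure D4:**
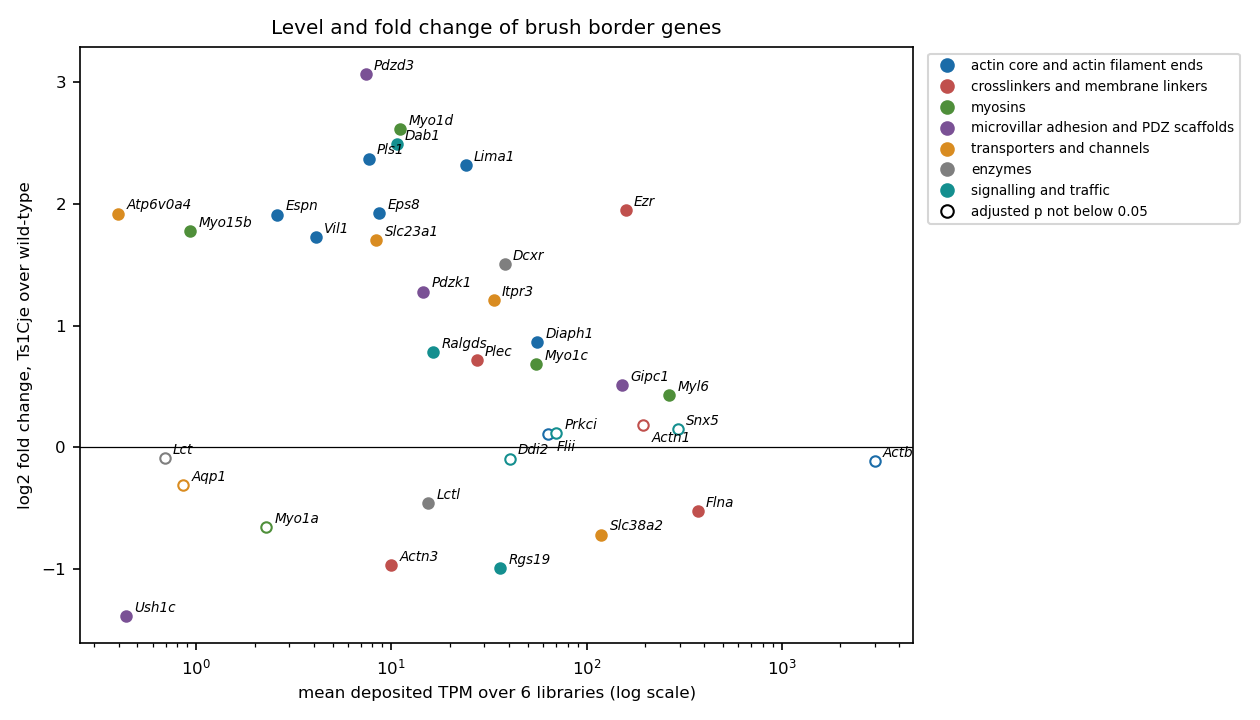
Mean deposited TPM over the 6 libraries (x axis, log scale) against log2 fold change, Ts1Cje over wild-type (y axis), for 36 of the brush border genes, coloured by role; open points were not called. Pdzd3, Myo1d, Dab1 and Pls1 rose the most at 7.37 to 11.1 TPM, Ezr combined a large rise with a high level, and the most abundant gene, Actb, lay near 0.

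Lists of other brush border genes, with the members taken out, are described by their counts, and the lists were not tested against each other. Some listed genes, such as Cdhr2, Sis and Slc15a1, carry the term but had too few counts to be members or to be tested. In a list of microvillus core, linker and adhesion genes, 24 were not members and 16 of them were tested, with 9 higher, 2 lower and a median of 0.68. The 2 lower are Msn and Rdx, and of these Msn alone was called when any single library other than wild-type replicate 1 was left out. The median moved to 0.53 without Ts1Cje replicate 1 and to 1.07 without wild-type replicate 2. Pls3, the widely expressed plastin, averaged 266 ± 20.8 CPM in Ts1Cje and 72.2 ± 2.36 CPM in wild-type (log2 fold change 1.88 ± 0.07, adjusted p = 5.38e-07). Vill, a villin relative, averaged 61.7 ± 11.1 CPM in Ts1Cje and 6.63 ± 0.964 CPM in wild-type (log2 fold change 3.22 ± 0.16, adjusted p = 1.4e-06), and Eps8l2, an Eps8 relative, averaged 81.7 ± 5.83 CPM in Ts1Cje and 8.56 ± 2.24 CPM in wild-type (log2 fold change 3.25 ± 0.16, adjusted p = 1.75e-06). Both relatives thus changed more than Vil1 and Eps8 themselves, although the difference between the genes was not tested.

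Of 19 digestive and other surface hydrolases that are not members, 10 were tested, with 5 higher, 3 lower and a median of 0.67, which moved to 0.47 without wild-type replicate 1. Ggt1, a γ-glutamyl transferase, averaged 11.4 ± 1.76 CPM in Ts1Cje and 2.30 ± 0.530 CPM in wild-type (log2 fold change 2.30 ± 0.23, adjusted p = 3.72e-05). Lower were Mgam, for maltase-glucoamylase, at 1.19 ± 0.353 CPM in Ts1Cje and 6.47 ± 1.11 CPM in wild-type (log2 fold change −2.43 ± 0.28, adjusted p = 9.51e-05), and Anpep, for aminopeptidase N, at 17.1 ± 3.91 CPM in Ts1Cje and 64.3 ± 13.4 CPM in wild-type (log2 fold change −1.91 ± 0.20, adjusted p = 0.000182). Of 27 apical transporters, 13 were tested, with 5 higher, 2 lower and a median of 0.24, which moved to 0.39 without wild-type replicate 2. Slc28a2, a nucleoside transporter, averaged 11.1 ± 2.34 CPM in Ts1Cje and 0.996 ± 0.106 CPM in wild-type (log2 fold change 3.47 ± 0.24, adjusted p = 5.41e-06). Slc15a2, a peptide transporter, averaged 12.1 ± 1.36 CPM in Ts1Cje and 46.5 ± 11.96 CPM in wild-type (log2 fold change −1.95 ± 0.19, adjusted p = 7.79e-05), and Abcg2, an efflux pump, averaged 55.5 ± 5.05 CPM in Ts1Cje and 131 ± 24.0 CPM in wild-type (log2 fold change −1.24 ± 0.14, adjusted p = 0.000144). Of 16 tested genes of apical trafficking and polarity, 8 were higher and 3 lower, with a median of 0.41. Crb3, of the Crumbs polarity complex, averaged 32.2 ± 4.32 CPM in Ts1Cje and 4.78 ± 1.06 CPM in wild-type (log2 fold change 2.75 ± 0.18, adjusted p = 3.75e-06), Vamp8 50.9 ± 8.77 CPM in Ts1Cje and 11.3 ± 0.800 CPM in wild-type (log2 fold change 2.17 ± 0.14, adjusted p = 3.79e-06) and Patj 121 ± 5.05 CPM in Ts1Cje and 60.5 ± 2.49 CPM in wild-type (log2 fold change 1.00 ± 0.07, adjusted p = 4.98e-06).

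Transcription factors known from enterocytes and visceral endoderm moved in both directions and by large amounts. Of 18 tested, 15 were higher and 3 lower, with a median of 2.01. Sox17, an endoderm factor, averaged 194 ± 29.1 CPM in Ts1Cje and 21.4 ± 1.78 CPM in wild-type (log2 fold change 3.18 ± 0.12, adjusted p = 6.92e-07). Elf3, a factor of epithelia, averaged 44.8 ± 3.29 CPM in Ts1Cje and 7.98 ± 1.65 CPM in wild-type (log2 fold change 2.49 ± 0.15, adjusted p = 2.82e-06). The 3 lower are Cdx2, Cdx1 and Gata5, named here after their values were seen. Cdx2, the main regulator of intestinal identity and also a factor of trophoblast and posterior mesoderm, had 3.07, 8.52 and 4.04 CPM in the Ts1Cje libraries, against 160.2, 248 and 215 CPM in the wild-type libraries (log2 fold change −5.33 ± 0.40, adjusted p = 0.000277).

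Markers of the epithelia that carry a brush border were set beside these values. Visceral endoderm markers were higher in Ts1Cje in 10 of 13 tested and lower in 1, and their summed level was 432, 292 and 511 CPM in Ts1Cje and 171, 147 and 139.8 CPM in wild-type. Replicate 2 had the lowest sum of the Ts1Cje libraries, and it was also the lowest in 50.4% of all genes called higher in the table. Rhox5 averaged 90.8 ± 16.9 CPM in Ts1Cje and 13.5 ± 2.11 CPM in wild-type (log2 fold change 2.75 ± 0.17, adjusted p = 5.69e-06), Ttr 28.2 ± 7.68 CPM in Ts1Cje and 7.98 ± 1.29 CPM in wild-type (log2 fold change 1.82 ± 0.21, adjusted p = 0.000153) and Trf 9.15 ± 3.98 CPM in Ts1Cje and 1.03 ± 0.278 CPM in wild-type (log2 fold change 3.14 ± 0.39, adjusted p = 0.00019), while Apoc2 was at 0 in all libraries. The endocytic receptor genes Lrp2, Cubn, Amn and Dab2, which the choice of genes left aside, were all called higher, with sums of 2189, 957 and 1543 CPM in Ts1Cje and 309.6, 257 and 215 CPM in wild-type. What part visceral endoderm has in the brush border values was not tested. Intestinal markers were low, with sums of 11.2, 9.18 and 11.96 CPM in Ts1Cje and 4.599, 4.33 and 3.56 CPM in wild-type, 2 of 5 tested higher, and Reg3b, Sis and Alpi at 0. The trefoil factor gene Tff3 made up much of the Ts1Cje sum, at 4.803 ± 1.41 CPM in Ts1Cje and 0.199 ± 0.136 CPM in wild-type (log2 fold change 4.55 ± 0.46, adjusted p = 4.82e-05). It had enough counts to be tested only through Ts1Cje. Its wild-type mean was near the limit of detection, since 3 counts correspond to 0.162 to 0.164 CPM in those libraries. Kidney tubule markers, not all of them particular to the proximal tubule, summed to 13.4, 12.04 and 13.2 CPM in Ts1Cje and 9.09, 11.0 and 12.1 CPM in wild-type. Of these, 4 were tested, with 1 higher and 0 lower, and Slc34a1, Kap, Cdh16 and Umod were at 0. Of 6 tested trophoblast markers, 3 were higher and 1 lower, and of 4 tested feeder fibroblast markers none was higher and 2 were lower.

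Of the 37 genes, 16 overlap another gene with counts, 10 of them a coding gene, and the strand setting of the authors' counting is not given in the sources used here. The largest shared spans with a well-counted coding gene of the other strand belong to Pdzk1 with Gpr89 (2646 bases) and Slc23a1 with Paip2 (2584 bases). Paip2 was called in the opposite direction to Slc23a1 (log2 fold change −0.29, adjusted p = 0.00384), and Gpr89 rose less than Pdzk1 (0.30, adjusted p = 0.0171). Atp6v0a4 shares 1413 bases with D630045J12Rik on the same strand, which had far more counts and fell (−0.61, adjusted p = 0.0142). Plec shares 1401 bases with Parp10 on the same strand, which had far fewer counts and fell (−0.68, adjusted p = 0.00319). Other partners moved with the member. Zwilch, on the other strand, shares 975 bases with Lctl, had more counts and fell by a similar amount (−0.49, adjusted p = 0.000324). The antisense gene 4930442L01Rik shares 2271 bases with Pdzk1 and rose (2.69, adjusted p = 0.000472), and Itpr3os shares 1783 bases with Itpr3 and rose (1.31, adjusted p = 0.00337). Reads of pairs on opposite strands cannot be told apart without the strand setting. Strand does not separate Atp6v0a4 from D630045J12Rik or Plec from Parp10 at all. The values of Pdzk1, Slc23a1, Atp6v0a4, Plec, Lctl and Itpr3 are uncertain to that extent.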

How the data were processed

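Values are the raw counts that the authors deposited for each Ensembl gene in 6 libraries, and the TPM of a second deposited table. The submitters' processing notes list featureCounts 1.6.3, HISAT2 2.1.0, Trimmomatic 0.38 and FastQC 0.11.7, and mm10 as the build. Counting strand and treatment of multi-mapped reads were not given in the sources used. Groups came from the labels, and 0 columns of per-sample values were unmapped. Coordinates came from the deposited table and matched the GENCODE annotation exactly for all 37 genes.

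Counts were filtered with filterByExpr (minimum count 10, minimum total 15), scaled by TMM and compared in R 4.3.3 with edgeR 4.0.16's quasi-likelihood test (robust, no covariate), with Benjamini-Hochberg adjustment over 17315 genes and a threshold of 0.05. Fold changes are Ts1Cje over wild-type; the approximate SE was obtained by dividing the size of the log2 fold change by the root of the F statistic. CPM uses TMM scaling. The main edgeR test was tried on simulated data with 200 genes changed, and the alternative fits were not. Far more genes were called here, so the simulation does not show error rates at that share. The 15 alternatives used DESeq2 1.42.0, limma 3.58.1, other scalings and filters, a replicate block and single libraries left out.

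Genes were assigned to roles by textbook function. Named were, in each role, the 4 members with the smallest adjusted p; the 8 largest rises and 8 largest falls among called members whose groups do not overlap; the 10 highest in TPM; and up to 3 genes, those with the smallest adjusted p, from each other list. Of the genes this rule names, 1 member and 1 other are not reported here singly and are not drawn. Members and lists were chosen with earlier results of these data known.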

Additional observations from a re-analysis of the deposited data

How the results depend on the processing

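Over 15 alternatives, 21 to 24 of the brush border genes were called higher and 4 to 6 lower, and their median log2 fold change ran from 0.66 to 0.79. Of the 28 called genes, 26 kept their call in every alternative in which they could be fitted, Lctl and Ush1c did not (their values stand beside them above), and 0 changed sign. Of the 9 genes not called, 3 passed somewhere: Myo1a as given above, Snx5 with the replicate block (adjusted p = 0.0480), and Actn1 with no filter (0.0350), with the replicate block (0.0160) and without Ts1Cje replicate 1 (0.0413). The sign of uncalled genes turned for Aqp1 without wild-type replicate 3 (log2 fold change 0.44, adjusted p = 0.568), and for Lct without Ts1Cje replicate 1 (0.03, adjusted p = 0.958) and without wild-type replicate 1 (0.18, adjusted p = 0.745); with single libraries left out they ran from −0.64 to 0.44 for Aqp1 and from −0.32 to 0.18 for Lct, and the cause was not tested. With no filter some adjusted p-values were far smaller (Msn, 2.84e-39, against 2.83e-05 with the filter) and others larger (Ezr, 0.00159, against 0.000473). The median of the regulator list was 1.30 on log2(TPM + 1).

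Same-numbered libraries of the genotypes correlated at 0.24, 0.07 and 0.23 in their deviations from the group means. Every library correlated best with its own number. The labels do not say that these libraries are paired, so the main test used no pairing, and whether they are paired is not known. With the replicate block, 24 brush border genes were higher and 6 lower (median 0.72), and over all genes 4361 were higher and 3965 lower, against 4032 and 3547 without it. No scaling moved the median of all genes by more than 0.03. Depth limits the 13 untested genes and those on few counts, such as Ush1c and Atp6v0a4.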
